A study of Mus musculus with 20 samples.

Results

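The genes described here are 8 imprinted genes with known roles in growth and in the making of fat cells (Mest, Peg3, Dlk1, H19, Igf2, Cdkn1c, Plagl1 and Grb10) and 2 genes that are not imprinted but are known from expanding fat (Sfrp5 and Npr3). They were found by name among the spots of the arrays that are not controls. All 10 are among the 37074 gene names on the array, and all 10 were among the 25618 genes tested. These names stand on 24 of the 56605 probes, of which 22 were tested, and each gene was read from its brightest tested probe. The remaining probes, 1 of Mest and 1 of H19, were well above background on no array.

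RNA was measured in visceral adipose tissue of the epididymal area, taken from 20 male C57bl/6J mice of generation F3, with 1 array per mouse. The Ref group (6 mice) came from the control lineage, whose feed had been supplemented with high-oleic sunflower oil in every generation, and it ate a low-fat reference diet. HFoleic (6 mice) came from that same lineage and ate an obesogenic diet rich in fat and sucrose. HFepa (8 mice) ate this obesogenic diet too and came from the omega 3 lineage, whose feed had been supplemented with a fish oil rich in eicosapentaenoic acid (EPA). The labels name the groups STD with the control fatty acid, HFD with the control fatty acid and HFD with n-3PUFA. HFoleic vs. Ref therefore compares the diets within 1 lineage, HFepa vs. HFoleic compares the lineages on 1 diet, and HFepa vs. Ref differs in both. The mice put on the high-fat diet had been matched for body weight, and only RNA above an integrity limit was hybridized. Tissue was taken after months on these diets, from mice killed while fasting. The age of the mice and the number of litters per group are not given in the sources used here, so litter and lineage cannot be told apart.

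An imprinted gene is transcribed mainly from the allele of 1 parent, and many such genes form a network that sets the pace of growth before and after birth. Mest, Peg3, Dlk1, Igf2 and Plagl1 are expressed from the paternal allele, H19 and Cdkn1c from the maternal allele, and Grb10 from the maternal allele in most tissues. In adipose tissue Mest is known to rise when fat cells enlarge on a rich diet, Dlk1 keeps preadipocytes from maturing, and Sfrp5, a secreted protein that binds Wnt ligands, is often described beside Mest. Npr3 is the clearance receptor that removes natriuretic peptides, a class of hormones. The arrays give the summed RNA of both alleles, so they do not show which allele was read.

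All groups were present on each of the 3 slides, with 1 HFoleic mouse on slide 2 and otherwise 2 or 3 mice per group and slide. The tissue carried its label: all 10 markers of fat cells were tested, and their mean log2 signal was 16.84 to 17.14 in Ref, 16.38 to 17.02 in HFoleic and 16.50 to 17.02 in HFepa. Markers of macrophages differed between the groups, with a mean log2 signal of 11.26 to 11.82 in Ref, 12.45 to 13.76 in HFoleic and 11.31 to 13.76 in HFepa. For lipid-associated macrophages it was 11.29 to 11.91 in Ref, 13.28 to 14.66 in HFoleic and 11.71 to 14.91 in HFepa. For progenitors and fibroblasts it was 12.09 to 12.53, 12.52 to 12.90 and 12.16 to 12.64 in the same order. In HFoleic vs. Ref, limma called 10 of 11 tested macrophage markers higher and 4 of 10 fat cell markers lower at adjusted p under 0.05. Of all tested genes 15.2% were called higher and 16.7% lower. Also called higher were 8 of 10 markers of lipid-associated macrophages and 4 of 12 markers of progenitors and fibroblasts. None of the macrophage or fat cell markers was below background on every array of a group. HFepa mouse 1 (13.76) and HFepa mouse 6 (13.37) had the highest macrophage level of their group. Markers of testis or epididymis were high (mean log2 signal over 8.5) in 5 mice, namely Ref mice 3 and 6, HFoleic mouse 5, and HFepa mice 2 and 4. In bulk tissue, fewer cells of a type and less RNA per cell cannot be told apart, which holds for every value below.

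In HFoleic vs. Ref, 6 of the 10 genes passed the threshold of adjusted p 0.05 (limma, Benjamini–Hochberg over all tested probes), where 31.9% of all tested genes did. The 10 genes were chosen with earlier results of these data known, so this share is only a description. Higher in HFoleic were Sfrp5, Mest, Npr3 and H19, that is 4 of the 10 genes, against 15.2% of all tested genes. Lower were Grb10 and Cdkn1c, that is 2 of the 10, against 16.7% of all tested genes. Peg3, Plagl1, Igf2 and Dlk1 had lower means in HFoleic without passing. The groups did not overlap for 3 genes (Sfrp5, Npr3 and Grb10), while 14% of all tested genes did not overlap (6.93% higher and 7.08% lower in HFoleic). The median of the 10 log2 changes was -0.44, beside -0.039 over all tested genes.

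**Figure D1:**
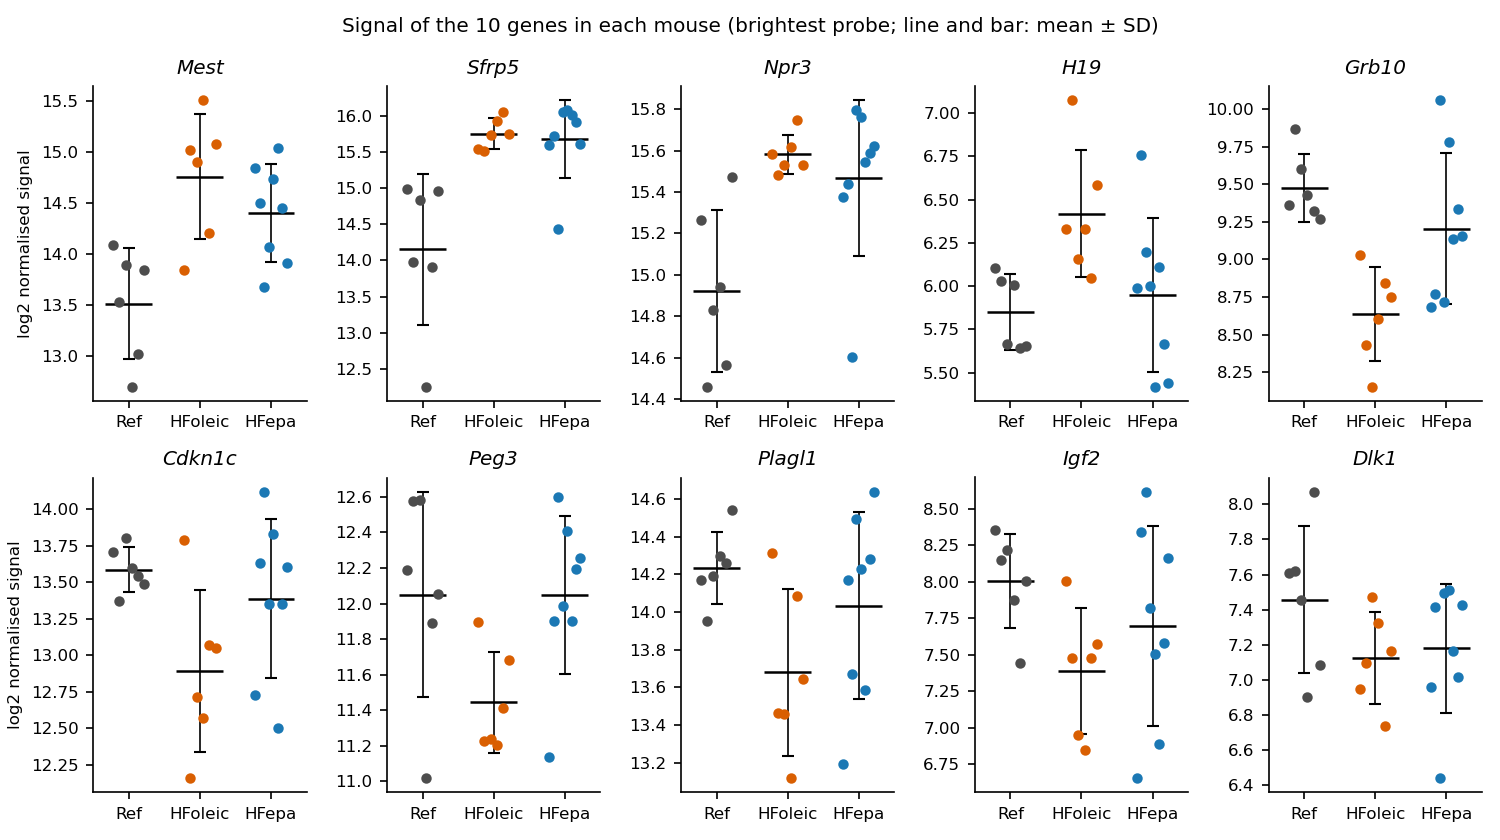
The log2 normalised signal of the brightest probe of each gene is plotted for every mouse of Ref (6), HFoleic (6) and HFepa (8), with 1 point per mouse, and the line and bar give the mean and SD. Each panel has its own vertical axis, which does not start at 0. All HFoleic mice lie above all Ref mice for Sfrp5 and Npr3 and below them for Grb10, and HFepa mouse 3 is the lowest point of its group for Mest, Sfrp5 and Npr3 and the highest for Grb10.

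Mest, an enzyme of the endoplasmic reticulum, was read at chr6:30697385-30697444 (mm9, + strand). Its log2 signal ran from 12.70 to 14.08 in Ref (median 13.69), from 13.84 to 15.50 in HFoleic (median 14.96) and from 13.67 to 15.04 in HFepa (median 14.47). Of the HFoleic mice only mouse 1 lay within the range of the Ref mice, as did HFepa mice 3, 4 and 8, and Ref mice 5 and 6 were the lowest of all 20. The mean was 2.37-fold higher in HFoleic than in Ref, a log2 change of 1.24 ± 0.29 (SE, adjusted p = 0.00351). The difference was positive within each slide, at 1.00, 1.75 and 1.09, where the value of slide 2 (1.75) rests on 1 HFoleic mouse. A dimmer Mest probe differed by 0.76 ± 0.29 (adjusted p = 0.0547), the dimmest by -0.065 ± 0.29 (adjusted p = 0.89), and with the mean over the tested Mest probes the change was 0.65 (adjusted p = 0.0759). The mean log2 signal over all mice was 14.24 for the brightest probe and 7.05 for the dimmest, which counts equally in that mean.

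Sfrp5 was read at chr19:42272509-42272568 (mm9, - strand) by its only probe. The log2 signal ran from 12.25 to 14.99 in Ref (median 14.40), from 15.51 to 16.06 in HFoleic (median 15.74) and from 14.43 to 16.07 in HFepa (median 15.82). Every HFoleic mouse was above every Ref mouse, and Ref mouse 5 was far below the others. Sfrp5 had the largest change of the 10 genes, 3.03-fold or 1.60 ± 0.36 on the log2 scale (SE, adjusted p = 0.00292). Without Ref mouse 5 the change was 1.22, the smallest of the 20 fits that leave out 1 mouse, and Sfrp5 passed in all of these fits.

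Npr3 was read at chr15:11769666-11769725 (mm9, - strand). Its log2 signal ran from 14.46 to 15.47 in Ref (median 14.89), from 15.48 to 15.74 in HFoleic (median 15.56) and from 14.61 to 15.80 in HFepa (median 15.57). HFoleic lay above Ref without overlap, by a narrow margin at Ref mouse 7, and the SD was 0.39 in Ref and 0.093 in HFoleic. The log2 change was 0.66 ± 0.18 (SE, adjusted p = 0.0084), and the other Npr3 probes rose too, by 0.75 (adjusted p = 0.00313) and 0.47 (adjusted p = 0.0371).

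H19, a long non-coding RNA that shares its enhancers with Igf2, was read at chr7:149761492-149761551 (mm9, - strand) near the lower end of the scale, well above background on 5 of 6 arrays in Ref, on all 6 in HFoleic and on 6 of 8 in HFepa. Its signal on the log2 scale ran from 5.64 to 6.11 in Ref (median 5.84), from 6.05 to 7.07 in HFoleic (median 6.33) and from 5.42 to 6.76 in HFepa (median 6.0). HFoleic mouse 7 lay within the Ref range and the other HFoleic mice above it. The log2 change in HFoleic vs. Ref was 0.57 ± 0.20 (SE, adjusted p = 0.0355). This call was lost in 6 of the 20 fits that leave out 1 mouse (without Ref mouse 4, 6 or 7 or HFoleic mouse 4, 6 or 8), with adjusted p from 0.0508 to 0.0998. It was also lost with the processed signal (1.03, adjusted p = 0.071), with normexp (0.40, adjusted p = 0.0502) and with median centring (0.45, adjusted p = 0.0674).

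Grb10, an adaptor that dampens signalling of the insulin and IGF-1 receptors, was read at chr11:11833165-11833224 (mm9, - strand). Its log2 signal ran from 9.27 to 9.87 in Ref (median 9.40), from 8.15 to 9.03 in HFoleic (median 8.68) and from 8.69 to 10.06 in HFepa (median 9.14). Every HFoleic mouse was below every Ref mouse, and the HFepa range overlapped both. The log2 signal fell by 0.84 ± 0.21 in HFoleic vs. Ref (SE, adjusted p = 0.00509). The other Grb10 probes fell without overlap as well, by 1.26 (adjusted p = 0.000384) and 1.12 (adjusted p = 0.00033). Within the slides the differences were -0.82, -0.92 and -0.97, where the value of slide 2 (-0.92) rests on 1 HFoleic mouse.

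**Figure D2:**
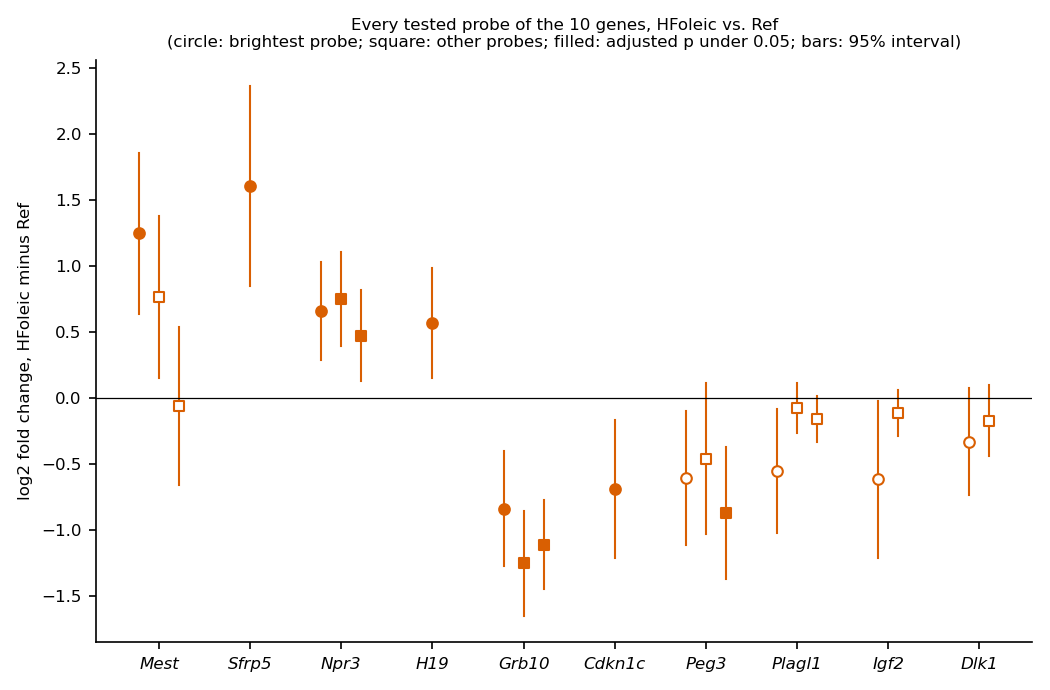
The log2 fold change of HFoleic minus Ref with its 95% interval is plotted for each of the 22 tested probes of the 10 genes, where circles are the brightest probe of a gene, squares its other probes, and filled symbols passed adjusted p 0.05. All Grb10 and all Npr3 probes are filled, with log2 values from -1.26 to -0.84 and from 0.47 to 0.75, while the dimmest Mest probe lies near 0.

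Cdkn1c, an inhibitor of cyclin-dependent kinases that holds back cell division, was read at chr7:150644297-150644356 (mm9, - strand). On the log2 scale its signal ran from 13.37 to 13.80 in Ref (median 13.57), from 12.16 to 13.79 in HFoleic (median 12.88) and from 12.50 to 14.12 in HFepa (median 13.48). HFoleic mouse 1 lay among the Ref mice and the other HFoleic mice below them, and the SD was 0.15 in Ref, 0.55 in HFoleic and 0.54 in HFepa. The log2 signal fell by 0.69 ± 0.25 in HFoleic vs. Ref (SE, adjusted p = 0.0422). In 9 of the 20 fits that leave out 1 mouse (each Ref mouse but 3, and HFoleic mice 4, 5, 6 and 8) the call was lost, with adjusted p from 0.0518 to 0.114, and it was lost with the processed signal (adjusted p = 0.0513), with median centring (adjusted p = 0.0601) and without the filter on dim probes (adjusted p = 0.0574).

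The remaining genes had lower means in HFoleic than in Ref and did not pass. Peg3, a paternally expressed zinc finger gene, was read at chr7:6657078-6657137 (mm9, - strand), and its log2 signal ran from 11.02 to 12.58 in Ref (median 12.12), from 11.20 to 11.89 in HFoleic (median 11.33) and from 11.13 to 12.60 in HFepa (median 12.09). Ref mouse 5 was the lowest of all 20 mice, and 5 of the 6 HFoleic mice lay below the other Ref mice. The log2 change was -0.61 ± 0.24 (SE, adjusted p = 0.0644). Of its dimmer probes 1 fell by 0.88 (adjusted p = 0.00904), and the other was at -0.46 (adjusted p = 0.213). Without Ref mouse 5, HFoleic mouse 1 or HFepa mouse 1 the Peg3 call was gained, with adjusted p from 0.00808 to 0.04, and also when the slide entered the fit as a block (-0.67, adjusted p = 0.0367).

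Plagl1, a zinc finger transcription factor of the imprinted network, was read at chr10:12850832-12850891 (mm9, + strand). Its log2 signal ran from 13.95 to 14.54 in Ref (median 14.23), from 13.12 to 14.31 in HFoleic (median 13.55) and from 13.19 to 14.64 in HFepa (median 14.20). HFoleic mice 1 and 7 lay within the Ref range and the other 4 below it. The log2 change was -0.56 ± 0.22 (SE, adjusted p = 0.0647), and it passed without HFoleic mouse 1, HFoleic mouse 7 or HFepa mouse 1, with adjusted p from 0.0222 to 0.0459. The mean over its probes also passed, at a smaller change of -0.27 (adjusted p = 0.0438). Its dimmer probes did not pass by themselves, at -0.076 (adjusted p = 0.568) and -0.16 (adjusted p = 0.144). The latter lay near the lower end of the scale, with a mean log2 signal of 5.79.

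Igf2, a fetal growth factor, was read at chr7:149837115-149837174 (mm9, - strand). The log2 signal ran from 7.44 to 8.35 in Ref (median 8.08), from 6.85 to 8.01 in HFoleic (median 7.48) and from 6.65 to 8.62 in HFepa (median 7.70). The ranges overlapped widely, and the log2 change in HFoleic vs. Ref was -0.62 ± 0.28 (SE, adjusted p = 0.106). A fit to Ref and HFoleic alone called it (adjusted p = 0.0289), as did array weights (-0.73, adjusted p = 0.0163). The dimmer Igf2 probe, near the lower end of the scale with a mean log2 signal of 5.82, was at -0.12 (adjusted p = 0.304). Dlk1, read at chr12:110698721-110698781 (mm9, + strand), ran from 6.90 to 8.07 in Ref (median 7.53), from 6.74 to 7.47 in HFoleic (median 7.13) and from 6.44 to 7.51 in HFepa (median 7.29) on the log2 scale. Its log2 change of -0.33 ± 0.19 (SE, adjusted p = 0.205) was the smallest of the 10 genes, with a 95% interval from -0.74 to 0.071. The highest Dlk1 values of Ref (mouse 6) and HFoleic (mouse 5) came from mice with testis or epididymis markers. The highest value of HFepa (mouse 5) did not.

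Without the 5 mice that carried testis or epididymis markers, Grb10 and Sfrp5 were the only genes of the 10 to pass in HFoleic vs. Ref. The log2 changes were then 1.1 for Mest (adjusted p = 0.0553), 1.5 for Sfrp5 (adjusted p = 0.0448), 0.46 for Npr3 (adjusted p = 0.105), 0.61 for H19 (adjusted p = 0.0543), -0.69 for Grb10 (adjusted p = 0.0445) and -0.72 for Cdkn1c (adjusted p = 0.137). Each kept its sign, and the share of all tested probes called fell from 30.8% to 16.2%. The macrophage level given above was higher in every HFoleic mouse than in every Ref mouse, and its part in these differences was not tested.

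The sequence before the start site is shown for the 2 genes with the largest rises and for the gene with the largest fall. The windows are 250 bases upstream of a RefSeq transcript start in GRCm38.p6, written 5′ to 3′ on the strand of the gene, with every CG dinucleotide in capitals because imprinted promoters are often rich in CG and methylated on 1 allele. Mest has 3 listed starts and Grb10 has 2, and the window with the most CG is shown for each (of the nearly identical Mest windows, the more downstream). The windows lie at chr6:30737803-30738052 (+) for Mest, chr19:42202253-42202502 (-) for Sfrp5 and chr11:12037421-12037670 (-) for Grb10.
Mest: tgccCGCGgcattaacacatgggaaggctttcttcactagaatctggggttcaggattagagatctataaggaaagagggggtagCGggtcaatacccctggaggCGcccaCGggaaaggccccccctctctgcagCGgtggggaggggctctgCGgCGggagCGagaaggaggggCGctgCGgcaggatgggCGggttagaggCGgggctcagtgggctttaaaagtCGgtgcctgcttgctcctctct
Sfrp5: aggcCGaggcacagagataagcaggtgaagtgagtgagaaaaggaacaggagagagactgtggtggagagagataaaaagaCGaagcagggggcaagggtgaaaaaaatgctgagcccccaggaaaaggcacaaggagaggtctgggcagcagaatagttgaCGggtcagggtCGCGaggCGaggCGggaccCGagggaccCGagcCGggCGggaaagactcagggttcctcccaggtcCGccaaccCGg
Grb10: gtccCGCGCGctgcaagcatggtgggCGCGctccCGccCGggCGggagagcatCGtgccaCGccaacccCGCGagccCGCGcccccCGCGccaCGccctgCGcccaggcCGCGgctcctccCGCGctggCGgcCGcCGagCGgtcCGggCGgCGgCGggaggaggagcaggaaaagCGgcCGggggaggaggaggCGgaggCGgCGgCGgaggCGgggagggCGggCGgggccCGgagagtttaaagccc
These windows hold 14, 13 and 40 CG, where the median of all 32851 windows is 6.0. Fewer CG than in these stood in 70.6%, 68.5% and 98.7% of all windows. The Mest and Grb10 windows were picked for their CG count. The upstream Mest window holds 7 CG and the other Grb10 window 8, with fewer in 53.7% and 57.0% of all windows. Windows were listed for 8 of the 10 genes, 14 windows in all. Searched on both strands were AGGTCA (nuclear receptors, in 14% of all windows), TTGCNNAA (C/EBP factors, 9.56%), GGGGCCCC (PLAGL1, 0.889%), TGACTCA (AP-1, 4.46%) and ACGTG (the core of a hypoxia response element, 16.6%). No match lay in the windows shown. TTGCNNAA stood once in the upstream Mest window, GGGGCCCC once in the Peg3 window, AGGTCA in 1 of the Igf2 windows, and ACGTG in the windows of Dlk1, Plagl1 and 1 Igf2 start. The Plagl1 window matched once on each strand, at the same CACGTG. A match is a description of letters only, and methylation was not measured on these arrays.

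In HFepa vs. Ref, 1 of the 10 genes passed, Sfrp5, where 2.45% of all tested genes did. Its log2 change was 1.52 ± 0.34 (SE, 2.87-fold, adjusted p = 0.0289), and 7 of the 8 HFepa mice lay above all Ref mice. The exception was HFepa mouse 3 (14.43), which lay within the Ref range. The call was lost without Ref mouse 3, Ref mouse 6, HFepa mouse 1 or HFepa mouse 6, with adjusted p from 0.0502 to 0.0713, and in a fit to Ref and HFepa alone (adjusted p = 0.0788). No gene of the 10 had groups without overlap, against 1.04% of all tested genes (0.375% higher and 0.667% lower in HFepa).

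Mest and Npr3 were higher in HFepa than in Ref in the mean and did not pass, with log2 changes of 0.89 ± 0.27 (SE, adjusted p = 0.0801) and 0.54 ± 0.17 (SE, adjusted p = 0.0798). Without HFepa mouse 3 both passed and 3 of the 10 genes were called, while the share of all tested probes called rose from 2.26% to 6.38%. The brightest Grb10 probe differed by -0.27 ± 0.20 (SE, adjusted p = 0.458), and the Grb10 probe at chr11:11870574-11870633 (mm9, - strand) fell by 0.71 ± 0.18 (SE, adjusted p = 0.0424), where 2.26% of all tested probes passed. Peg3 had a log2 difference of -0.0033 ± 0.23 (SE) with a 95% interval from -0.48 to 0.47, and H19 one of 0.097 ± 0.19 (SE) with an interval from -0.29 to 0.49. These fits share the Ref arrays with HFoleic vs. Ref, so the values of the comparisons are set side by side and not counted as independent.

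In HFepa vs. HFoleic, limma called 0 of the 10 genes and 0% of all tested genes at adjusted p 0.05 (0.00254% of all tested probes), while 4 of the 10 genes and 20.8% of all tested genes had an unadjusted p under 0.05. Grb10 was higher in HFepa by 0.57 ± 0.20 (SE, adjusted p = 0.137), Peg3 by 0.60 ± 0.23 (SE, adjusted p = 0.155) and Cdkn1c by 0.50 ± 0.24 (SE, adjusted p = 0.238), and H19 differed by -0.47 ± 0.19 (SE, adjusted p = 0.169). On the brightest probe of each of these genes the HFepa mean lay nearer to Ref than to HFoleic. These 4 genes are those with an unadjusted p under 0.05 in this comparison, which favours means far from HFoleic. The ranges of HFepa and HFoleic overlapped for them, as they did for all 10 genes (0.355% of all tested genes did not overlap). All 3 Grb10 probes differed by between 0.55 and 0.57 in this comparison, but they differed in their distance from Ref. On the probe at chr11:11870574-11870633 the HFepa mean lay nearer to HFoleic (0.55) than to Ref (-0.71). On the remaining Grb10 probe it lay about midway (0.56 from HFoleic and -0.55 from Ref). Without HFepa mouse 1, Peg3 and Grb10 passed, with adjusted p of 0.0403 and 0.0494, and array weights gave the same 2 calls. Over all tested probes the share called was then 7.27% without this mouse and 11.5% with array weights, so the calls came with a rise across the array. Sfrp5, Npr3 and Mest differed by -0.079 (95% interval from -0.79 to 0.63), -0.12 (from -0.46 to 0.23) and -0.35 (from -0.92 to 0.21).

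**Figure D3:**
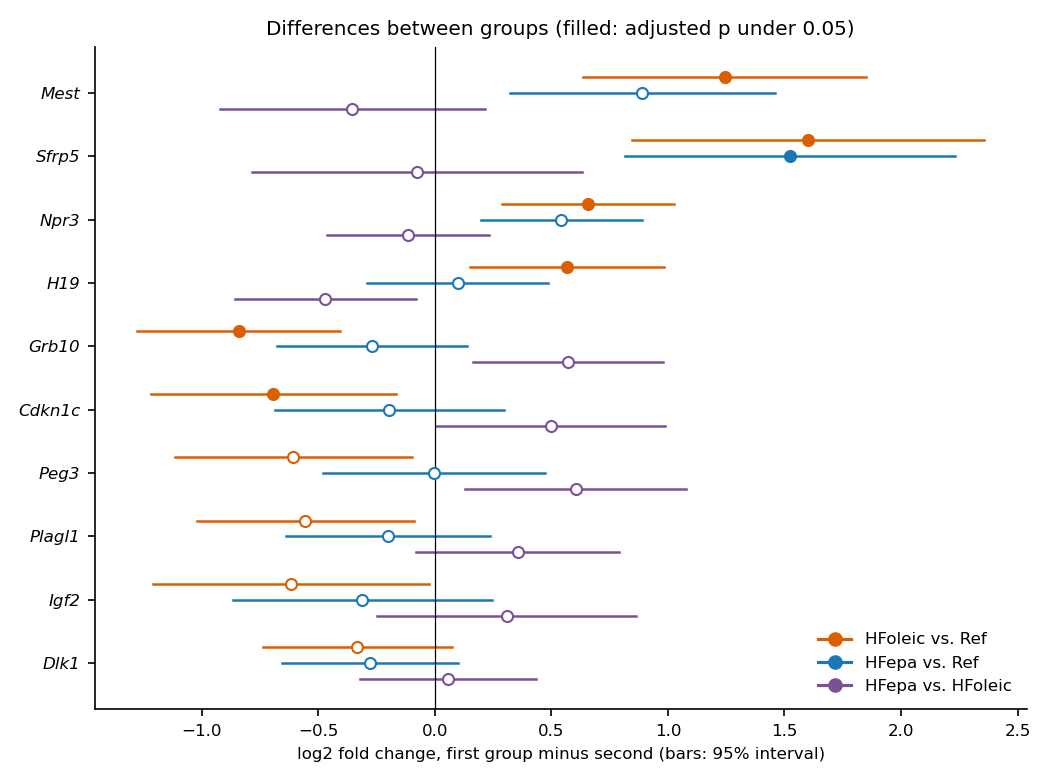
The log2 fold change of each gene and its 95% interval are plotted side by side for the 3 comparisons (HFoleic with Ref, HFepa with Ref, HFepa with HFoleic), and filled points passed adjusted p 0.05. The values in HFoleic vs. Ref and in HFepa vs. Ref, which share the Ref mice, are 1.60 and 1.52 for Sfrp5, 1.24 and 0.89 for Mest and 0.66 and 0.54 for Npr3, while Peg3 lies at -0.61 in HFoleic vs. Ref and near 0 in HFepa vs. Ref.

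HFepa mice differed among themselves. HFepa mouse 3 had the lowest Mest (13.67), Sfrp5 (14.43) and Npr3 (14.61) of its group and the highest Grb10 (10.06), Cdkn1c (14.12), Peg3 (12.60) and Igf2 (8.62) on the log2 scale, and its Dlk1 (6.44) was the lowest of all 20 mice. Its macrophage level (11.98) was close to the group median of 12.03. Its levels of lipid-associated macrophage markers (11.71, group median 12.58) and of mesothelial markers (7.14, group median 8.86) were the lowest of the group. HFepa mice 1 and 6, with the highest macrophage levels, had the lowest Igf2 (6.65 and 6.89), the lowest Cdkn1c (12.73 and 12.50), the lowest Plagl1 (13.19 and 13.59) and the highest Mest (14.84 and 15.04). The part of these marker levels in the values of the genes was not tested.

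Mest is known to follow fat mass within genetically equal mice on 1 diet, so its spread was set against the other 9 genes and against Lep, the hormone made in proportion to fat stores. Group means were subtracted, and the 10 correlations over 20 mice were tested by permutation within groups (two-sided, 100000 draws) with Benjamini–Hochberg adjustment over the 10. Lep followed Mest with r = 0.72 (adjusted permutation p = 0.005) and rho = 0.70 (adjusted permutation p = 0.0107). Sfrp5 followed with r = 0.63 (adjusted permutation p = 0.00585) and rho = 0.61 (adjusted permutation p = 0.0425). Cdkn1c went the opposite way with r = -0.58 (adjusted permutation p = 0.0312) and rho = -0.48 (adjusted permutation p = 0.0978). Plagl1 did so with r = -0.55 (adjusted permutation p = 0.0398) and rho = -0.55 (adjusted permutation p = 0.0594). The unadjusted permutation p of r was 0.0005 for Lep, 0.00117 for Sfrp5, 0.00935 for Cdkn1c and 0.0159 for Plagl1. When each of the 20 mice was left out in turn, Lep and Sfrp5 passed in all 20 fits and Cdkn1c in 16. Plagl1 passed in 9 of these 20 fits, with adjusted permutation p up to 0.148, and not with median centring (adjusted permutation p = 0.0772).

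Within slides 1, 2 and 3, r was 0.88, 0.65 and 0.60 for Lep, 0.58, 0.75 and 0.71 for Sfrp5, -0.67, -0.61 and -0.52 for Cdkn1c, and -0.78, -0.50 and -0.001 for Plagl1, so that the relation with Plagl1 did not hold within slide 3. Without Ref mouse 5 and HFoleic mouse 1, the mice farthest from the median of Mest, r was 0.66 for Lep, 0.55 for Sfrp5, -0.52 for Cdkn1c and -0.49 for Plagl1. Without the 2 mice farthest from the median of the other gene, which was tried after seeing the values, the permutation test called 0 of the 10 correlations and 1 had an unadjusted p under 0.05, with r = 0.55 for Lep and 0.41 for Sfrp5. The relations therefore rest in part on those mice, which were HFepa mouse 3 and HFoleic mouse 1 for Lep and HFepa mouse 3 and Ref mouse 5 for Sfrp5. The relations also differed in value within the groups, and these differences were not tested. In Ref, HFoleic and HFepa, r with Lep was 0.63, 0.72 and 0.81, and r with Sfrp5 was 0.93, 0.13 and 0.63. For Cdkn1c it was 0.30 in Ref, where its sign was turned, -0.78 in HFoleic and -0.72 in HFepa, and for Plagl1 it was -0.036, -0.97 and -0.45. Igf2 (0.76, -0.76 and -0.84) and Peg3 (0.77, -0.67 and -0.58) likewise had opposite signs in Ref and in the groups on the high-fat diet, which the r over all mice does not show. Ref mouse 5 was the lowest of all mice for both Mest and Peg3, so the value of Peg3 in Ref leans on this mouse. The other 6 correlations did not pass, with r from -0.46 for Igf2 to 0.31 for Dlk1.

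**Figure D4:**
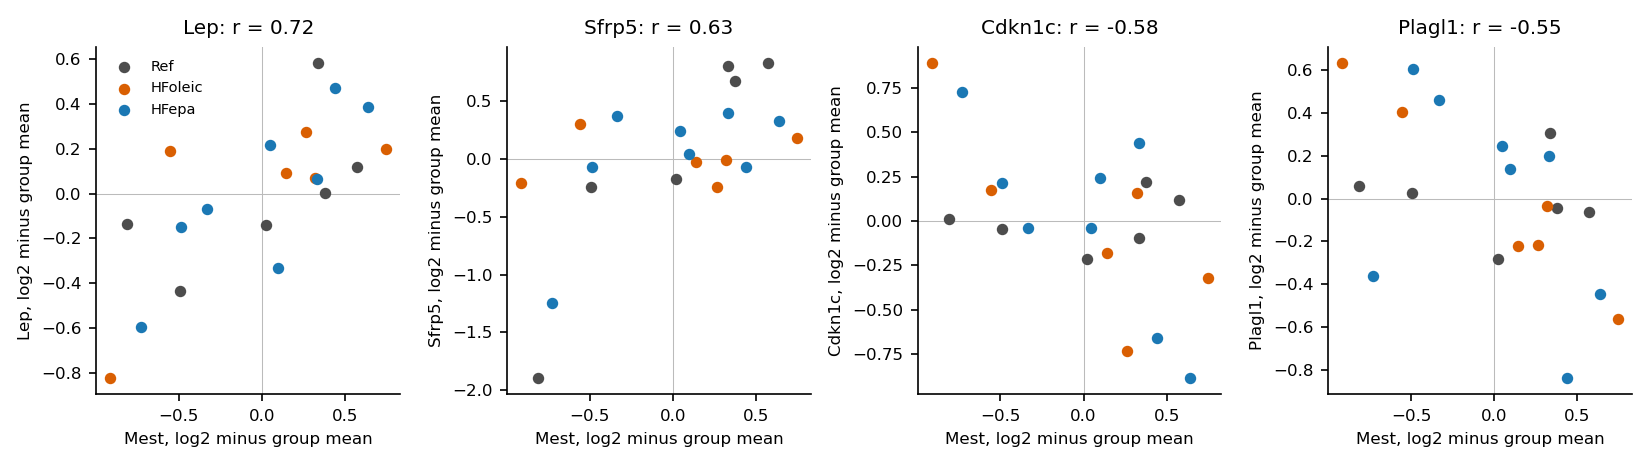
Each point is 1 of 20 mice, with the log2 signal of Mest minus its group mean on the horizontal axis and that of Lep, Sfrp5, Cdkn1c or Plagl1 minus its group mean on the vertical axis, coloured by group. Lep and Sfrp5 rise with Mest (r = 0.72 and 0.63) and Cdkn1c and Plagl1 fall (r = -0.58 and -0.55), and in the Sfrp5 panel Ref mouse 5 and HFepa mouse 3 lie far below the rest.

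Over all 20 arrays, with the group differences left in, the profile most like Mest among 25602 genes was that of Synpo2 (r = 0.94), followed by Nek6 (r = 0.94) and Pea15a (r = 0.94). Peg3 was most like Zim1 (r = 0.95), an imprinted zinc finger gene next to it on the chromosome. For Sfrp5 the first was Sncaip (r = 0.93), for Npr3 Zfp488 (r = 0.93), for Grb10 Lincpint (r = 0.94), for Cdkn1c Rps6kl1 (r = 0.94) and for Plagl1 Pde1a (r = 0.96). Igf2 was most like Nup54 (r = 0.94), H19 most like Ecd (r = 0.88) and Dlk1 most like Asl (r = 0.81). These likenesses are descriptions over arrays that share their group means.

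Beyond the 8 imprinted genes above, 46 of the 52 other imprinted genes on the array were tested. In HFoleic vs. Ref 13 of the 46 rose and 5 fell (39.1% called, beside 31.9% of all genes), with a median log2 change of -0.01 beside -0.039 over all genes. The 5 with the smallest p were Tfpi2, a protease inhibitor (1.41 ± 0.21 on the log2 scale, SE, adjusted p = 0.000391), Asb4, an ankyrin repeat protein (1.66 ± 0.32, adjusted p = 0.0011), Rasgrf1, an exchange factor for Ras (-0.63 ± 0.12, adjusted p = 0.00121), Atp10a, a phospholipid flippase (0.71 ± 0.16, adjusted p = 0.00284), and Zrsr1, a splicing factor (-0.63 ± 0.15, adjusted p = 0.00325). Processed signal and median centring moved the split to 13 higher and 9 lower and to 13 higher and 10 lower. In HFepa vs. Ref 2 of the 46 passed, Tfpi2 (0.77, adjusted p = 0.0486) and Peg10 (0.56, adjusted p = 0.0458), which is 4.35% of the 46 beside 2.45% of all genes. Leaving out 1 mouse gave 0 to 7 such calls, and 0 in 12 of the 20 fits. In HFepa vs. HFoleic limma called 0 of the 46, and 12 had an unadjusted p under 0.05, as had 20.8% of all genes.

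Some neighbours of the 10 genes on the chromosome were measured too, and no difference between neighbours was tested. Meg3, the maternally expressed non-coding RNA of the Dlk1 locus, rose in HFoleic vs. Ref by 0.47 ± 0.15 on the log2 scale (SE, adjusted p = 0.0258), and the RNAs Rian (0.60, adjusted p = 0.0256) and Mirg (0.45, adjusted p = 0.0467) of that locus, named after their values were seen, rose too. Dlk1 itself was at -0.33 (adjusted p = 0.205). Zim1 was at -0.77 (adjusted p = 0.0601) beside Peg3 at -0.61. Klf14, a transcription factor gene near Mest that was also named after its values were seen, rose by 0.70 ± 0.24 (SE, adjusted p = 0.0334).

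**Figure D5:**
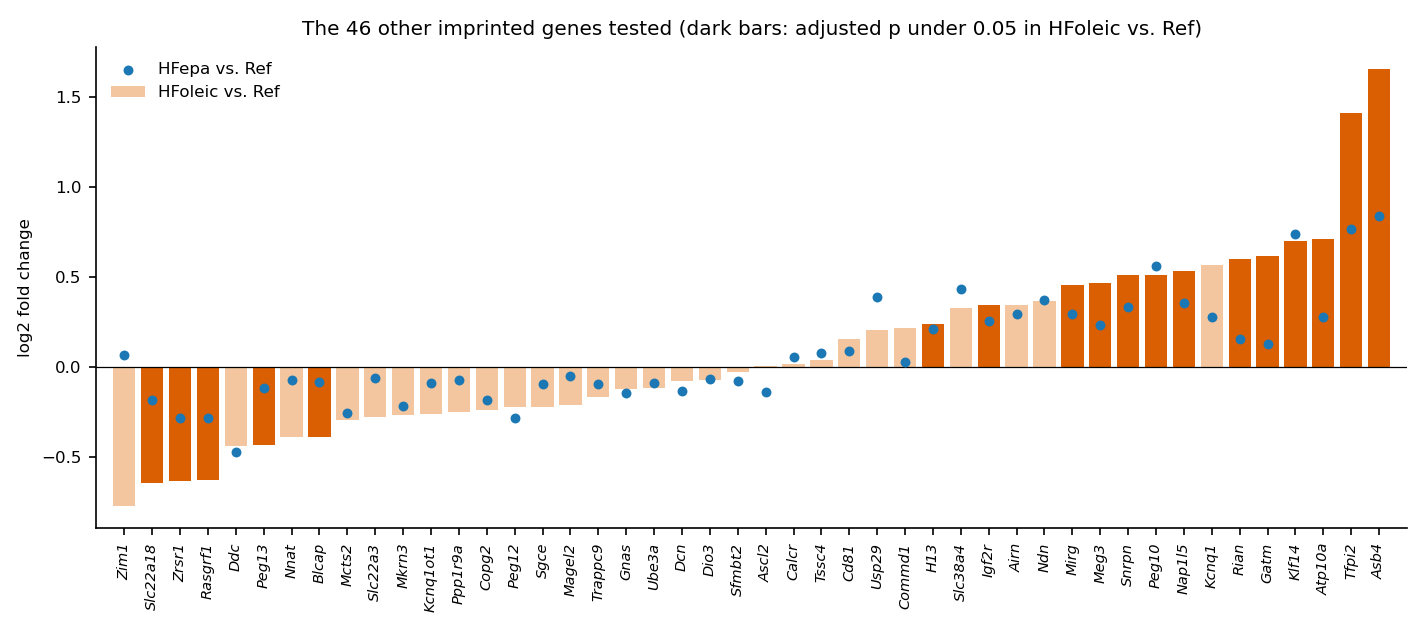
The log2 fold change in HFoleic vs. Ref is drawn as a bar for each of the 46 other imprinted genes tested, dark where adjusted p was under 0.05, and the point gives HFepa vs. Ref for the same gene. The bars run from -0.77 for Zim1 to 1.66 for Asb4, and 18 are dark.

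Of the IGF axis around Igf2 and Grb10, 17 of 19 listed genes were tested, and in HFoleic vs. Ref 3 rose and 2 fell (29.4% called, beside 31.9% of all genes). Igfals, which holds IGF in the circulation, rose by 2.08 ± 0.34 on the log2 scale (SE, adjusted p = 0.000481). Igfbp5, an IGF-binding protein, rose by 0.92 ± 0.11 (SE, adjusted p = 0.00014) and was also called in HFepa vs. Ref (0.71 ± 0.099, SE, adjusted p = 0.00389), without overlap of the groups in either. Igf2r, which clears Igf2, rose by 0.34 (adjusted p = 0.0425). The insulin receptor Insr fell by 0.51 (adjusted p = 0.0207) and Pappa, a protease of IGF-binding proteins, by 0.51 (adjusted p = 0.0353), in the same comparison in which Grb10 fell. Igf1 (-0.15, adjusted p = 0.327) and Igf1r (-0.24, adjusted p = 0.186) were not called.

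Around Sfrp5, 24 of 26 listed Wnt genes were tested, and in HFoleic vs. Ref 7 rose and 0 fell, with a median log2 change of 0.099. The share called was 29.2%, beside 31.9% of all genes. The 5 with the smallest p were the Wnt inhibitor Wif1 (1.84 ± 0.35, SE, adjusted p = 0.00101), the receptors Ror2 (0.41, adjusted p = 0.00174) and Fzd2 (0.63, adjusted p = 0.00179), Sfrp4 of the same family as Sfrp5 (1.21 ± 0.27, SE, adjusted p = 0.00264) and the ligand Wnt2 (0.57, adjusted p = 0.00296). Wnt5a, a ligand that Sfrp5 binds, was at 0.12 (adjusted p = 0.398). In HFepa vs. Ref limma called 0 of the 24 beside the call of Sfrp5 itself, and 5 had an unadjusted p under 0.05, as had 21.5% of all genes.

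Around Npr3, 10 of 11 listed natriuretic peptide genes were tested and 2 fell in HFoleic vs. Ref (20% called, beside 31.9% of all genes). They were Npr2, the receptor of the C-type peptide (-0.40 ± 0.096 on the log2 scale, SE, adjusted p = 0.00421), and Pde5a, which breaks down cyclic GMP (-0.60 ± 0.17, SE, adjusted p = 0.0101). Npr1, the signalling receptor for the atrial peptide, was at 0.079 (adjusted p = 0.556). Npr3 was thus higher and Npr2 lower, each without overlap between HFoleic and Ref, as 14% of all genes were.

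Among 11 relatives of Cdkn1c, Plagl1, Grb10 and Dlk1, all tested, 3 rose and 1 fell in HFoleic vs. Ref (36.4% called, beside 31.9% of all genes). The cell cycle inhibitors Cdkn2a (0.91 ± 0.19 on the log2 scale, SE, adjusted p = 0.00202), Cdkn2b (0.64, adjusted p = 0.00551) and Cdkn2d (0.30, adjusted p = 0.0183) rose, and Cdkn1a fell by 0.68 ± 0.23 (SE, adjusted p = 0.0302), as Cdkn1c did.

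Of 12 tested genes linked with the expansion of fat, 5 rose and 2 fell in HFoleic vs. Ref (58.3% called, beside 31.9% of all genes). The list was chosen with earlier results of these data known, so this share is only a description. Lep rose by 1.13 ± 0.20 on the log2 scale (SE, adjusted p = 0.000741), Col6a3, a matrix collagen, by 1.24 ± 0.20 (SE, adjusted p = 0.000484), Ptrf, which builds caveolae, by 0.35 (adjusted p = 0.00183), Vldlr, a lipoprotein receptor, by 0.77 (adjusted p = 0.00257) and Bmp3 by 1.05 (adjusted p = 0.0107). Vegfa, which drives vessel growth, fell by 0.81 ± 0.18 (SE, adjusted p = 0.00265), and Trib3, named after its values were seen, fell by 0.88 (adjusted p = 0.00358). In HFepa vs. Ref Ptrf was the only one called (0.31, adjusted p = 0.0269), which is 8.33% of the 12 beside 2.45% of all genes. Lep was at 0.69 (adjusted p = 0.0552) beside Mest at 0.89. In HFepa vs. HFoleic limma called 0 of the 12, and 5 had an unadjusted p under 0.05, as had 20.8% of all genes.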

How the data were processed

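Gene expression was measured on 20 Agilent SurePrint arrays of 1 colour, 1 per mouse. Per the file headers, the authors extracted spot intensities with Agilent Feature Extraction 10.10.1.1, and the median intensity is as deposited, linear and not normalized. The authors also deposited a log2 table, quantile normalized after a filter, whose columns correlate at 0.9997 or more with the log2 values used here (column medians 8.06 to 8.07). Of 62976 spots per array, 59305 are not controls, and 66.06% to 71.88% of these were well above background per array.

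Here the log2 of the median intensity was quantile normalized and averaged over spots of a probe. Spots marked non-uniform or outlying were missing (24 values). Probes well above background on at least 6 arrays were tested (39390). Groups were compared with lmFit and eBayes (limma 3.58.1, R 4.3.3) on all 20 arrays, and p-values of all tested probes were adjusted together (Benjamini–Hochberg, threshold 0.05). Every gene was read from its brightest tested probe. Correlations used numpy 2.4.6. The fit and the correlation step were tested on simulated data. The number of arrays limits the precision.

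The genes and lists were chosen with earlier results of these data known. Named were all 10 genes, up to 5 called genes of each list with the smallest p, genes called in the other comparisons, 8 fixed partners (Igf1, Igf1r, Igf2r, Meg3, Wnt5a, Npr1, Lep and Bmp3) and the most similar genes, of which the first is printed. Probe positions are those of the files (mm9), and upstream sequences are from RefSeq (GRCm38.p6). Alternatives were other backgrounds, scalings, filters, blocks, weights, variance models, probe summaries and each mouse left out.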

Additional observations from a re-analysis of the deposited data

Results flagged for a closer look

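In the HFepa group, Sfrp5 and Npr3 of mouse 3 stood apart by Dixon's gap test at the 95% level. Its Sfrp5 log2 signal was 14.43, and the nearest other HFepa mouse was at 15.60. Its Npr3 log2 signal was 14.61, and the nearest other was at 15.37. The gap was 0.714 of the group's range for Sfrp5 and 0.646 for Npr3, above the critical value of 0.526 for 8 mice. These 2 flags came from 30 tests (10 genes in 3 groups), of which chance flags about 1 in 20.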

How the results depend on the processing

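Of 1020 repeated values of the log2 changes of the 10 genes over 34 alternatives and 3 comparisons, 948 kept their sign and their side of the threshold, 34 lost and 22 gained a call, and 16 changed sign. With the replicate block, whose numbers did not pair the mice (16 pairs, of which 5 had a correlation over 0.1, median -0.083), limma called 0 of the 10 in HFepa vs. Ref (3 at unadjusted p under 0.05 without the block), and the number of other imprinted genes was 10 in HFoleic vs. Ref and 0 in HFepa vs. Ref, and Peg3 in HFepa vs. Ref was at 0.014. Cdkn1c in HFoleic vs. Ref was then at -0.67 (adjusted p = 0.131) and Sfrp5 in HFepa vs. Ref at 1.55 (adjusted p = 0.0907), and of all tested probes 20% were called in HFoleic vs. Ref and 0.0635% in HFepa vs. Ref. With the slide as a block, 0 other imprinted genes were called in HFepa vs. Ref and 1 in HFepa vs. HFoleic, and Peg3 was at 0.016. Array weights called 9 of the 10 genes in HFoleic vs. Ref (40.9% of all tested probes), with Peg3, Plagl1 and Igf2 gained, 2 in HFepa vs. Ref (3.75%) and 2 in HFepa vs. HFoleic (11.5%), and 31 and 10 other imprinted genes in HFoleic vs. Ref and HFepa vs. HFoleic. A fit to the compared groups only called 0 of the 10 genes and 0 other imprinted genes in HFepa vs. Ref. For the other imprinted genes in HFepa vs. Ref the count was 1 with normexp, 0 with median centring (Peg3 at 0.020) and 0 without the filter. Without the 5 mice with testis or epididymis markers, chosen after seeing the data, 2 of the 10 genes passed in HFoleic vs. Ref, 0 in HFepa vs. Ref, and 0 other imprinted genes in HFepa vs. Ref, with Peg3 at 0.12 and H19 at -0.053 there. Without the 2 mice farthest in the other gene, 0 correlations with Mest passed and that with Npr3 was -0.0036. The fits to the compared groups only and those without mice use fewer mice, and the cause of the other differences was not tested.

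Leaving out 1 mouse gave 4 to 8 of the 10 genes in HFoleic vs. Ref (25% to 33.4% of all tested probes), 0 to 3 in HFepa vs. Ref (0.33% to 6.38%) and 0 to 2 in HFepa vs. HFoleic (0% to 7.27%), 0 to 7 other imprinted genes in HFepa vs. Ref and in HFepa vs. HFoleic, and 2 to 5 correlations with Mest (2 without HFoleic mouse 1, HFepa mouse 1 or HFepa mouse 6). In HFepa vs. Ref Peg3 ran from -0.21 to 0.13 and H19 from -0.018 to 0.17. In HFepa vs. HFoleic Sfrp5 ran from -0.14 to 0.099, Npr3 from -0.16 to 0.0078 and Dlk1 from -0.022 to 0.16. The correlation of Mest with Peg3 ran from -0.41 to 0.072. H19, the dimmer Igf2 probe and the dimmest Plagl1 probe lay near the background of the array, which limits their values.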
